A study of Mus musculus with 16 samples.

Results

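Retinoid metabolism was described through 10 genes, chosen by symbol from the 54392 symbols of a colonocyte count table. Products of Stra6 and Rbp4 move retinol, and those of Adh1 and Rdh10 oxidise it to retinal. Those of Dhrs3 and Retsat act against that step or divert retinol from it. Aldh1a1, Aldh1a2, Aldh1a3 and Aldh1a7 belong to the Aldh1a family, and the activity of their products on retinal was not measured here. All 10 were listed in the table, and 9 had enough counts to be tested. Libraries came from colonocytes of C57BL/6 mice fed for 3 weeks either corn oil with cellulose (9 libraries, numbered 1 to 9) or fish oil with pectin (7 libraries, numbered 1 to 7). No genotype or transgene is named in the labels, so both groups are described only by strain, diet and duration, and no age of the mice was found in the labels. The extraction protocol speaks of RNA of the colon and the cell type label of colonocytes. The labels number the libraries as biological replicates but do not tie each to a mouse, so the p-values cover the spread of the libraries at hand.

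Vitamin A circulates as retinol bound to the carrier protein RBP4 and can enter cells through the receptor STRA6. Inside the cell retinol is oxidised to retinal by dehydrogenases such as RDH10, in a step that DHRS3 reverses, and retinal is oxidised irreversibly to retinoic acid by enzymes of the ALDH1A family. Retinoic acid binds the nuclear receptors of the RAR and RXR families and, in the intestine, is known for shaping epithelial differentiation and mucosal immunity.

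Library totals ran from 13996288 to 19331984 counts with corn oil/cellulose and from 16212831 to 19512755 with fish oil/pectin. The names of 10 libraries began with GC (corn oil/cellulose 5 to 9 and fish oil/pectin 3 to 7) and those of 6 did not (corn oil/cellulose 1 to 4 and fish oil/pectin 1 and 2). The meaning of the prefix is not known from the labels, so the model carried a term for the name form and results are also given within each form. By more than 100 counts of Y-linked genes, all 6 libraries without the prefix were male, against 2 of 5 GC-named corn oil/cellulose and 1 of 5 GC-named fish oil/pectin libraries, so the name form and sex are not independent here. All 10 colonocyte markers were detected, with levels in CPM (counts scaled to a common library size with TMM factors). Their sums were 17708 to 20106 CPM in GC-named corn oil/cellulose and 20629 to 26002 CPM in GC-named fish oil/pectin libraries, and 16306 to 19096 and 16734 to 17181 CPM in the others. The sums of fibroblast and smooth muscle markers did not exceed 5.16 and 0.616 CPM. Leukocyte markers, by contrast, were at 61.2 to 108 CPM in the GC-named corn oil/cellulose libraries and at 26.6 to 36.5 CPM in the GC-named fish oil/pectin libraries, and at 32.2 to 37.6 and 33.0 to 34.3 CPM in the others. Fish oil/pectin library 7 stood apart from the rest: its 5 distal colon Hox genes summed to 114 CPM, against 315 to 674 CPM in the other 6 libraries of that diet and 269 to 572 CPM with corn oil/cellulose.

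Aldh1a1 and Aldh1a7 are neighbouring paralogs, and their sequences are shown first because they bear on how far the counts of the pair are separate measurements. On GRCm38, GENCODE M21 places the protein-coding Aldh1a1 gene at chr19:20492715-20643465 on the forward strand and the protein-coding Aldh1a7 gene at chr19:20692953-20727562 on the reverse strand, 49487 bases apart. The 120 bases before each start site (RefSeq promoter table, GRCm38.p6, chr19:20601848-20601967 forward and chr19:20727557-20727676 reverse, 5′ to 3′ along the gene) were identical at 105 positions, or 87.5%, and capitals mark the 15 that differ.
Aldh1a1: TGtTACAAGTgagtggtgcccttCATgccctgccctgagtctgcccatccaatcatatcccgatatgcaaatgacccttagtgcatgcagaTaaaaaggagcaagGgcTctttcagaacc
Aldh1a7: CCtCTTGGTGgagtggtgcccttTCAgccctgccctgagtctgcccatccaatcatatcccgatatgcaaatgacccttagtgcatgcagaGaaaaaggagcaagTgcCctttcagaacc
Differences gather at the far end of the window, and the stretch nearer the start site is almost shared.

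The first 120 coding bases of the pair, joined across exons (Aldh1a1 within chr19:20602012-20610966, Aldh1a7 within chr19:20727009-20727512), differ at 10 positions, again in capitals.
Aldh1a1: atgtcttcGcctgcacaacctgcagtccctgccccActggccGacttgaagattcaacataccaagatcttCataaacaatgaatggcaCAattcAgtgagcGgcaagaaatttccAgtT
Aldh1a7: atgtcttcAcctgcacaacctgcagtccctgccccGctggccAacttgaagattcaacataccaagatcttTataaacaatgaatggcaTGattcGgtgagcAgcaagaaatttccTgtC
Over the whole coding sequence 1377 of 1503 bases, or 91.6%, were identical, and the longest identical run was 100 bases. Of all 50-base windows of the Aldh1a7 transcript 7.49% occur unchanged in an Aldh1a1 transcript, of 75-base windows 2.51%, and of 150-base windows 0%. No read length and no rule for reads with several matches was found in the labels, so a small share of the reads of this pair may have been left uncounted or assigned to the wrong paralog.

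The RefSeq table gives Aldh1a1 2 start sites, at 20492583 and 20601968, and the sequence above precedes the second, inside the gene interval of GENCODE. The octamer ATGCAAAT, searched on both strands of 300-base promoter windows and chosen after the sequences were seen, lies 56 bases before this second start of Aldh1a1 and before the start of Aldh1a7, and was not in the window of the other Aldh1a1 start. Another member, Aldh1a2, holds it 84 bases before its start. The 120 bases before the Aldh1a2 start (chr9:71215669-71215788, forward, GRCm38.p6) are shown with the octamer and a CCAAT box in capitals, since this is the member that was almost absent from these libraries.
Aldh1a2: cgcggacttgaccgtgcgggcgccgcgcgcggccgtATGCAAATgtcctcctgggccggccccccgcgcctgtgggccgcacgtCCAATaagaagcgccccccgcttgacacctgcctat
The octamer was thus in windows of 3 of the 8 members with an entry in the promoter table. Of these, 2 are the pair whose shared stretch it was picked from, so this count cannot be compared with other genes. It was in 1.97% of all 27025 genes there and 1.74% of the 32851 windows, several genes, members among them, having more than 1 window. CCAAT, also not among the motifs planned beforehand, was in windows of 6 of the 8 members and in 41.1% of genes and 37.4% of windows. Aldh1a1 and Aldh1a7 both hold it 72 bases before the start, in their shared stretch, so this count cannot be compared with other genes either. The retinoic acid receptor half-site AGGTCA was in none of the 8, against 18.1% of genes and 16.3% of windows. Its direct repeats spaced by 1, 2 or 5 bases contain it, so their absence follows from that and adds nothing. These matches describe letters in short windows and say nothing of binding.

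Scaled by exon length, the level of Adh1 was far above that of the other genes, with a mean of 475 RPKM (CPM per kilobase of exon) over 16 libraries and a range of 185 to 724. Retsat followed at 37.6 RPKM, Aldh1a1 at 33.0, Dhrs3 at 19.2, Aldh1a7 at 11.9, Rdh10 at 6.38 and Rbp4 at 3.27 RPKM. At the low end, Aldh1a3 averaged 0.30 RPKM, Stra6 0.206 and Aldh1a2 0.00336.

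The steps from Adh1 to Retsat, from Rbp4 to Aldh1a3 and from Stra6 to Aldh1a2 separated all libraries, whereas the ranges of every other pair of neighbours overlapped. Retsat exceeded Aldh1a1 in 13 of 16 libraries, and Aldh1a3 exceeded Stra6 in 13 of 16. This order depends on the length used, because GENCODE M21 gives Aldh1a1 exons totalling 4937 bases and a longest coding transcript of 2358 bases. Scaled by the longest coding transcript, Aldh1a1 averaged 69.1 RPKM and was above Retsat, at 44.0 RPKM, in 14 of 16 libraries.

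**Figure D1:**
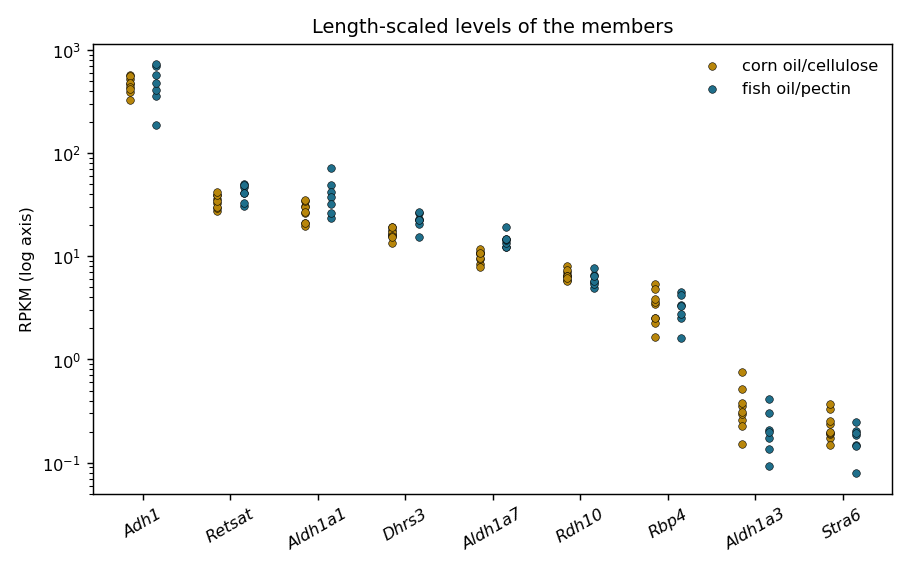
Level of 9 genes in every library, in RPKM by exon length on a log axis, with 1 point per library coloured by diet. Adh1 lies above all other genes in every library, and Aldh1a3 and Stra6 lie below 1 RPKM; Aldh1a2, with 2 counts in all, is not drawn.

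With fish oil/pectin, 3 of the 9 tested genes rose (Aldh1a7, Dhrs3 and Retsat), 0 fell and 6 did not pass the test at an adjusted p of 0.05 (edgeR robust quasi-likelihood test, Benjamini-Hochberg over 14321 genes). Among all genes tested, 21.7% were higher and 20.1% lower under the same rule. The median log2 fold change of the 9 genes was 0.04, against 0.00 for all genes, and their median absolute log2 fold change was 0.41 against 0.23. A positive log2 fold change means a higher level with fish oil/pectin. Fold changes take the name form into account and mean CPM do not.

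**Figure D2:**
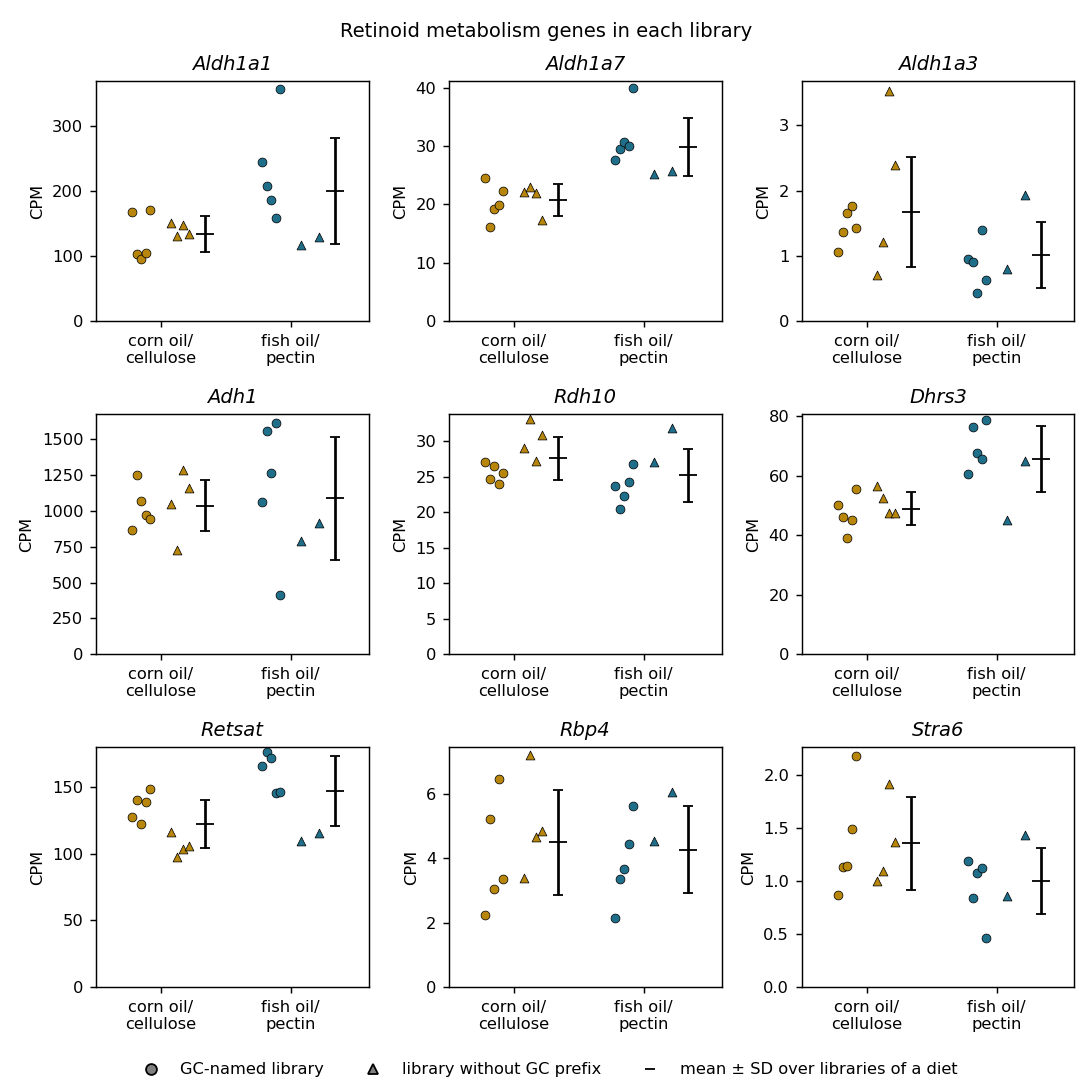
CPM of each gene in each library (circles, GC-named; triangles, others), with the mean and SD over the libraries of a diet beside the points and every axis starting at 0. The Aldh1a7 points of the 2 diets do not overlap (16.1 to 24.6 against 25.2 to 40.0 CPM), and fish oil/pectin library 7 is the lowest Adh1 point and the highest Aldh1a1 point.

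Stra6 and Rbp4, the chosen genes of retinol transport, were at low levels, with means of 0.206 and 3.27 RPKM. This did not hold for all genes of uptake and binding. Among the others listed, mean levels ran from 0 RPKM for Rbp3 to 40.7 RPKM for Ttr, with Rbp2 at 13.5 RPKM. Stra6 counts ranged from 8 to 35 per library, and its level was 0.869 CPM at the lowest, 1.14 at the median and 2.17 at the highest with corn oil/cellulose, against 0.459, 1.08 and 1.43 with fish oil/pectin. The ranges overlapped, and the log2 fold change was -0.42 ± 0.24 (SE; edgeR adjusted p = 0.166; 95% interval -0.92 to 0.08).

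Rbp4, best known as a liver and fat product that carries retinol in plasma, was detected in every library with 36 to 125 counts. It ranged from 2.23 to 7.19 CPM (median 4.66) with corn oil/cellulose and from 2.14 to 6.07 CPM (median 4.43) with fish oil/pectin. Its log2 fold change was -0.02 ± 0.23 (SE; edgeR adjusted p = 0.943), with an interval of -0.50 to 0.45 that leaves room for changes in either direction. The adipocyte markers Lep, Plin1 and Cfd had 0 counts in all libraries, while the whole list of 5 summed to 1.93 to 5.40 CPM with corn oil/cellulose and 2.43 to 7.29 CPM with fish oil/pectin, nearly all of it from Cidec.

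Of the genes whose products oxidise retinol, neither passed the test between diets. Adh1, a cytosolic alcohol dehydrogenase that also clears excess retinol, was at 729, 1050 and 1283 CPM (lowest, median, highest) with corn oil/cellulose. With fish oil/pectin it was at 414, 1065 and 1616 CPM, so the fish oil/pectin libraries held both the lowest value and the 2 highest. The log2 fold change was 0.04 ± 0.22 (SE; edgeR adjusted p = 0.911; 95% interval -0.43 to 0.50), and its sign changed with the scaling and with the libraries used.

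The Adh1 level moved with the distal colon markers Hoxd10, Hoxd11, Hoxd12, Hoxd13 and Hoxb13, genes that pattern the hindgut. After the means of each diet and name form were removed, Adh1 and their summed CPM correlated at r = 0.98 over 16 libraries on the log2 scale. The r was 0.91 without fish oil/pectin library 7, which held the lowest value of both, and 0.85 without the 2 libraries farthest from the median marker level. Within diets r was 0.93 over the 9 corn oil/cellulose and 0.99 over the 7 fish oil/pectin libraries. Other members also moved with this sum, Aldh1a1 at -0.71, Aldh1a7 at -0.66, Rdh10 at -0.61 and Stra6 at 0.61. Without library 7 these were -0.43, -0.41, -0.37 and 0.25. Aldh1a3, Dhrs3, Retsat and Rbp4 lay between -0.39 and 0.39 over all 16 libraries. These correlations are descriptions over libraries that share depth and scaling, and the part of colon region in the levels of Adh1 and the other members was not tested.

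With Hoxd13 as a covariate the log2 fold change of Adh1 was 0.21 (edgeR adjusted p = 0.178), and without library 7 it was 0.16 (adjusted p = 0.414). Neither fit over both name forms brought Adh1 past the threshold. Within GC-named libraries, however, its estimate was 0.21 (adjusted p = 0.556) with library 7 and 0.43 (adjusted p = 0.0408) without it. With the Hoxd13 covariate Aldh1a1 was at 0.34 (edgeR adjusted p = 0.161). Aldh1a7 (0.42, adjusted p = 0.00151), Dhrs3 (0.37, adjusted p = 0.0082) and Retsat (0.21, adjusted p = 0.0138) still passed in that fit.

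**Figure D3:**
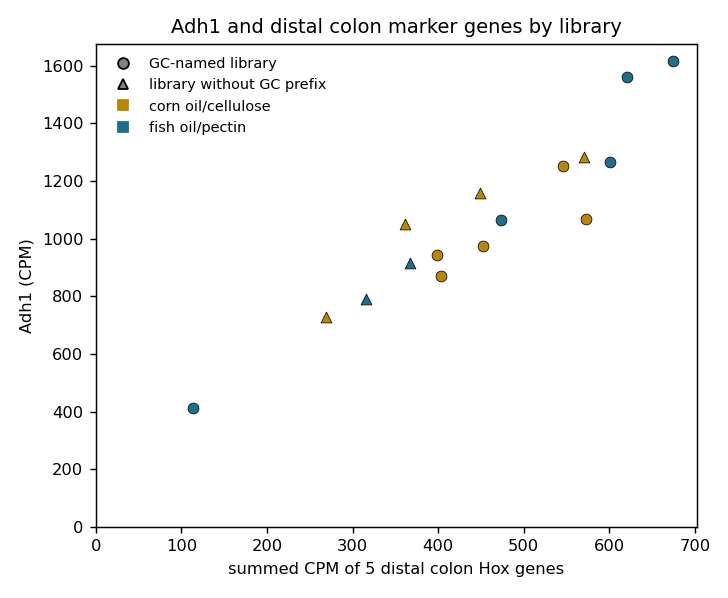
Adh1 against the summed CPM of 5 distal colon Hox genes, 1 point per library, both axes linear from 0, coloured by diet and shaped by name form. Points lie along a rising line from fish oil/pectin library 7, at 114 CPM of Hox genes and 414 CPM of Adh1, to fish oil/pectin library 6 at 1616 CPM of Adh1.

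Rdh10, the microsomal retinol dehydrogenase that limits retinoic acid formation in the embryo, was at 23.98, 27.1 and 33.2 CPM with corn oil/cellulose (lowest, median, highest) and at 20.5, 24.2 and 31.9 CPM with fish oil/pectin. Of the 7 fish oil/pectin libraries 3 were below all corn oil/cellulose libraries, but the log2 fold change of -0.09 ± 0.07 did not pass the test (SE; edgeR adjusted p = 0.297; 95% interval -0.23 to 0.05). Rdh10 did differ between the name forms, and was higher in libraries without the GC prefix by 0.27 ± 0.07 on the log2 scale (SE; edgeR adjusted p = 0.00434). The same test called 40.5% of all genes, and 2 of the 9 here.

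Both genes whose products draw retinoids away from retinal rose with fish oil/pectin. Dhrs3, which returns retinal to retinol and is itself a known retinoic acid target, was at 39.2, 47.6 and 56.7 CPM with corn oil/cellulose and at 45.3, 65.5 and 78.8 CPM with fish oil/pectin (lowest, median, highest). All but 1 fish oil/pectin library, number 1, exceeded every corn oil/cellulose library. The log2 fold change was 0.41 ± 0.10 (SE; edgeR adjusted p = 0.00404; 95% interval 0.20 to 0.62), from a mean of 49.0 ± 5.49 (SD, n = 9) to 65.6 ± 11.0 CPM (SD, n = 7).

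Retsat, which saturates retinol to dihydroretinol, had lowest, median and highest values of 97.5, 123 and 148 CPM with corn oil/cellulose and 109, 146 and 176 CPM with fish oil/pectin. Its change was the smallest of those that passed, 0.19 ± 0.06 on the log2 scale (SE; edgeR adjusted p = 0.0172). Retsat was lower in libraries without the GC prefix by a log2 difference of -0.42 ± 0.06 (SE; edgeR adjusted p = 0.000123), more than its difference between diets. Its call was lost with total counts in place of TMM scaling (0.12, adjusted p = 0.131), without corn oil/cellulose library 5 (0.17, adjusted p = 0.0515) and without the name form term (0.26, adjusted p = 0.0731). The gene lies at chr6:72598475-72608425 and overlaps Gm45053, which has 438 counts, on the opposite strand. Since the strand setting of the counting is not given, reads of the 2 cannot be told apart.

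Within each library the log2 ratio of Rdh10 to Dhrs3, scaled by exon length, sets the retinal-forming enzyme against the enzyme that reverses it and does not depend on library scaling. It was -1.34 ± 0.18 (SD, n = 9) with corn oil/cellulose and -1.88 ± 0.38 (SD, n = 7) with fish oil/pectin. Ranges within the GC-named libraries did not overlap, at -1.63 to -1.07 against -2.41 to -1.86. In the others they did, at -1.47 to -1.13 against -1.54 and -1.25. The ratio was formed from genes whose own diet effects are given above and is a description of transcript levels, with no test.

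The Aldh1a genes spanned a wide range of levels. Aldh1a7, a rodent paralog of Aldh1a1, was at 16.1, 22.0 and 24.6 CPM with corn oil/cellulose and at 25.2, 29.5 and 40.0 CPM with fish oil/pectin (lowest, median, highest). All 7 fish oil/pectin libraries lay above all 9 corn oil/cellulose libraries, a separation seen in 2.35% of the tested genes. Its log2 fold change was 0.51 ± 0.10 (SE; edgeR adjusted p = 0.00124; 95% interval 0.29 to 0.72), or 1.42-fold. The call held when each library was left out in turn, with log2 fold changes of 0.43 to 0.54. Among libraries with name numbers below 800 it did not hold (0.44, edgeR adjusted p = 0.0524).

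Aldh1a1, the highest of the Aldh1a genes by level, had the same estimate with a wider error. It was at 96.0, 134 and 172 CPM with corn oil/cellulose and at 117, 186 and 356 CPM with fish oil/pectin (lowest, median, highest). Of the 7 fish oil/pectin libraries 4 exceeded all corn oil/cellulose libraries, and both libraries without the GC prefix were among the 3 that did not. The log2 fold change was 0.50 ± 0.21 (SE; edgeR adjusted p = 0.0635; 95% interval 0.06 to 0.95), which missed the threshold.

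That estimate leaned on few libraries. Without fish oil/pectin library 7, at 356 CPM the highest, the log2 fold change of Aldh1a1 was 0.34 (edgeR adjusted p = 0.130). Without fish oil/pectin library 1 it was 0.63 (adjusted p = 0.0283), and without library 2 it was 0.61 (adjusted p = 0.0413). With sex as a covariate it was 0.58 (adjusted p = 0.0409), which made Aldh1a1 the fourth of 4 genes past the threshold, and DESeq2 gave 0.49 with an adjusted p of 0.0267.

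Aldh1a3, a retinal dehydrogenase gene of other epithelia, was near the lower limit of the test with 8 to 59 counts per library. Its lowest, median and highest values were 0.700, 1.43 and 3.52 CPM with corn oil/cellulose and 0.431, 0.906 and 1.93 CPM with fish oil/pectin. The log2 fold change of -0.66 ± 0.31 did not pass (SE; edgeR adjusted p = 0.0956; 95% interval -1.31 to -0.01), although it did without corn oil/cellulose library 1 (-0.78, adjusted p = 0.0318) or fish oil/pectin library 2 (-0.88, adjusted p = 0.0452). Aldh1a2, the retinal dehydrogenase gene of mesothelium and stroma, had 1 count in each of corn oil/cellulose libraries 3 and 5 and 0 in the other 14. At this depth a count of 0 allows up to 3 counts, or 0.154 to 0.214 CPM by library total, counting error only. The mesothelium markers summed to at most 1.13 CPM and the dendritic cell markers to at most 2.85 CPM in any library.

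By exon length, Aldh1a1 made up a mean of 72.0% of the summed Aldh1a levels with corn oil/cellulose and 72.1% with fish oil/pectin, and Aldh1a7 27.0% and 27.5%. The log2 ratio of Aldh1a1 to Aldh1a7 was 1.42 ± 0.22 (SD, n = 9) and 1.41 ± 0.38 (SD, n = 7). With the longest coding transcript as the length, the Aldh1a1 share had a median of 84.3% over the 16 libraries. Split by name form, the mean ratio differed between diets in opposite directions. This was not tested, and the difference in libraries without the GC prefix rests on 2 fish oil/pectin libraries. In GC-named libraries the ratio was 1.37 ± 0.26 (SD, n = 5) with corn oil/cellulose and 1.57 ± 0.33 (SD, n = 5) with fish oil/pectin, with overlapping ranges. In the others it was 1.25 to 1.69 over 4 corn oil/cellulose libraries and 0.96 and 1.08 in the 2 fish oil/pectin libraries, which did not overlap.

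**Figure D4:**
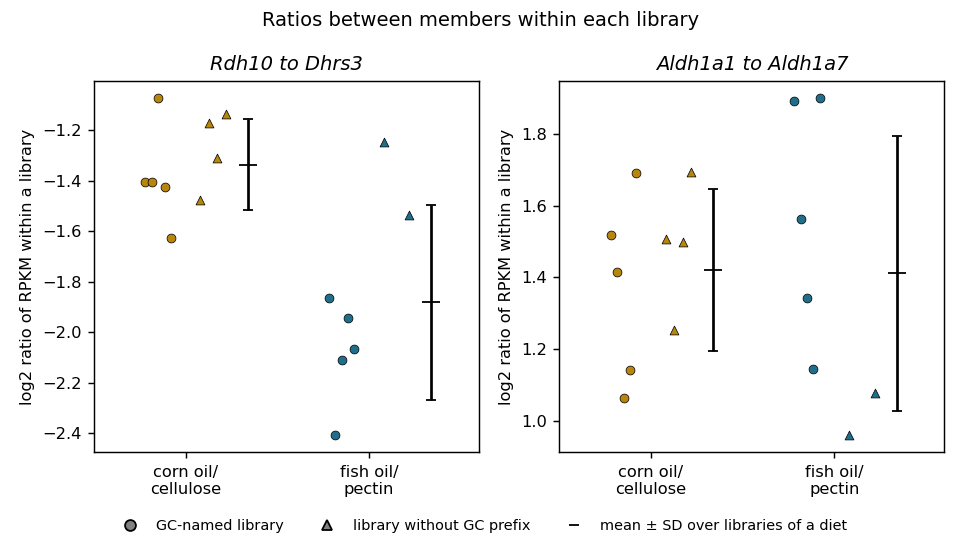
Log2 ratio of RPKM of Rdh10 to Dhrs3 and of Aldh1a1 to Aldh1a7 within each library (circles, GC-named; triangles, others), with mean and SD per diet. The GC-named fish oil/pectin libraries lie below all corn oil/cellulose libraries for Rdh10 to Dhrs3, and the diets overlap for Aldh1a1 to Aldh1a7.

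Within name forms, the genes that passed did so in the GC-named libraries. In a joint fit with a diet effect for each name form, 4 of the 9 genes were higher with fish oil/pectin among GC-named libraries, where 23.1% of all genes were higher and 21.8% lower. These were Aldh1a1 at 0.84 ± 0.21 (SE; edgeR adjusted p = 0.00449), Aldh1a7 at 0.63 ± 0.12 (adjusted p = 0.000419), Dhrs3 at 0.56 ± 0.11 (adjusted p = 0.000511) and Retsat at 0.25 ± 0.07 (adjusted p = 0.0092). Aldh1a7 and Dhrs3 were the 2 whose GC-named ranges did not overlap, which held for 15.2% of all genes tested in the higher direction.

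Among the 6 libraries without the GC prefix, 0 of the 9 genes passed, and 0% of all genes did (edgeR; 2385 genes and 0 of the 9 had an unadjusted p under 0.05). The estimates there were 0.27 ± 0.16 for Aldh1a7, 0.11 ± 0.15 for Dhrs3, 0.09 ± 0.10 for Retsat and -0.19 ± 0.29 for Aldh1a1 (log2, SE). The difference between the forms was itself tested and passed for 0 of the 9 genes, against 8.41% of all genes (edgeR; 3622 genes and 2 of the 9, Aldh1a1 and Dhrs3, had an unadjusted p under 0.05). For Aldh1a1 it was 1.04 ± 0.36 on the log2 scale (SE; edgeR adjusted p = 0.0879) and for Dhrs3 0.45 ± 0.18 (adjusted p = 0.134).

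**Figure D5:**
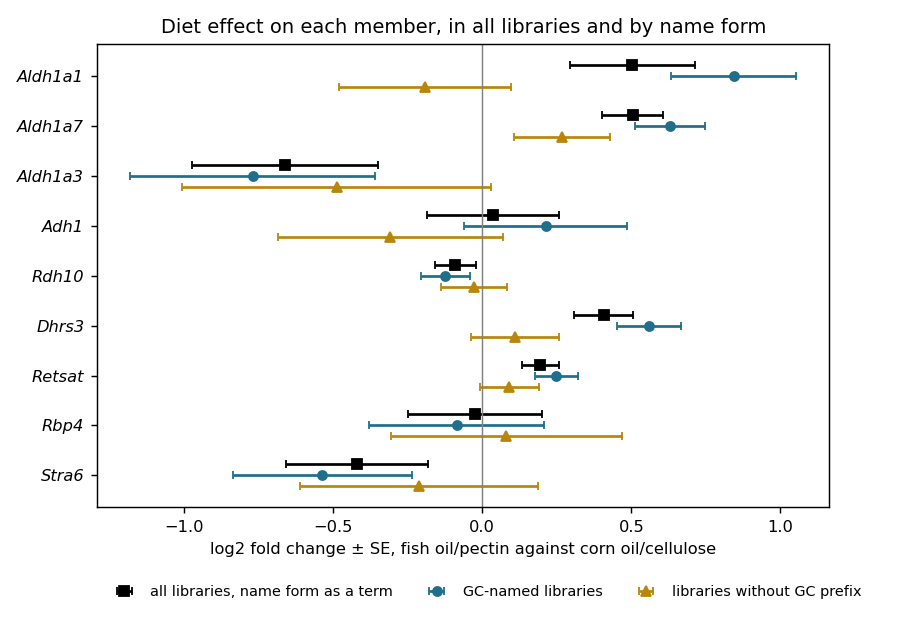
Log2 fold change of each gene with its SE, fish oil/pectin against corn oil/cellulose, for all libraries with the name form as a term (squares) and from the joint fit for GC-named (circles) and other libraries (triangles). Aldh1a1 is at 0.84 in GC-named and at -0.19 in other libraries, while Aldh1a7 and Dhrs3 are above 0 in both.

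The leukocyte markers moved with diet in the same libraries: 6 of 8 were tested and all 6 fell, against 20.1% of all genes. Their sums did not overlap between the diets within GC-named libraries. Colonocyte marker sums did not overlap there either and were higher with fish oil/pectin. Of the 10 colonocyte markers 3 rose (Krt8, Krt20 and Cdx2) and 0 fell, against 21.7% and 20.1% of all genes. After the means of each diet and name form were removed, the colonocyte sum correlated with Aldh1a1 at 0.73, with Aldh1a7 at 0.73, with Dhrs3 at 0.58 and with Retsat at -0.17, over 16 libraries that include library 7, the highest in these markers. With a score of non-epithelial markers as a covariate the estimates were 0.44 for Aldh1a7 (edgeR adjusted p = 0.0945), 0.39 for Dhrs3 (adjusted p = 0.115) and 0.21 for Retsat (adjusted p = 0.152). Those sizes were close to the ones without it, but none of the 3 calls remained. The part of leukocyte or colonocyte content in these differences was not tested. In bulk samples fewer cells of a type and less RNA per cell cannot be told apart.

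Among the other genes of the pathway, 37 of 54 listed were tested, of which 7 rose, 3 fell and 27 did not pass, with a median log2 fold change of 0.05. Of all genes tested, 21.7% rose and 20.1% fell by the same test. Uptake and binding genes that rose were Rbp7, a cellular retinol-binding protein, by 0.77 ± 0.26, Fabp5, a lipid chaperone that can carry retinoic acid, by 0.54 ± 0.14, and Scarb1, a receptor for lipoproteins and carotenoids, by 0.38 ± 0.07 (log2, SE; edgeR adjusted p = 0.0249, 0.00475 and 0.0007). Lrp1, an endocytic receptor, fell by 0.26. The largest of these changes, that of Rbp7, rests on 10 to 65 counts per library.

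Oxidoreductases other than those above counted 17 tested genes, of which 3 rose and 0 fell, against 21.7% and 20.1% of all genes. Those that rose were Akr1b8, an aldo-keto reductase, by 0.65 ± 0.14, Rdh11, a retinal reductase, by 0.34 ± 0.07, and Dhrs4, an NADPH-dependent retinal reductase, by 0.28 ± 0.06 (log2, SE). Dgat1, which can esterify retinol, rose by 0.19 ± 0.07, while Lrat, the main retinol esterifying enzyme, was at -0.37 ± 0.17 and did not pass (edgeR adjusted p = 0.0923).

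Retinoic acid breakdown was not measurable, because Cyp26a1, Cyp26b1 and Cyp26c1 stayed under the filter with mean levels of at most 0.139 CPM in either diet. Receptor genes of the RAR and RXR families did not pass: Rara was at 0.01 ± 0.10, Rarg at -0.03 ± 0.10, Rxra at -0.07 ± 0.06 and Rxrb at 0.10 ± 0.05 (log2, SE), and Rarb and Rxrg were too low to test. Of the 6 receptors tested 2 fell, against 20.1% of all genes: Ppard by 0.21 and Rora, with 10 to 44 counts per library, by 0.57. Both are nuclear receptors outside the RAR and RXR families. The retinoic acid binding protein gene Crabp2 was also too low to test, at 0.0537 and 0.0174 CPM.

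Known retinoic acid targets that passed the test went in both directions. Of 24 listed genes 14 were tested, 2 rose and 4 fell, with a median log2 fold change of -0.21. The shares over all genes were 21.7% and 20.1%. Those that rose were Dhrs3 and Cdx1, an intestinal homeobox gene, by 0.30 ± 0.07. Those that fell were Nrip1, a nuclear receptor corepressor, by 0.41, Btg2, an antiproliferative gene, by 0.39, Rai14 by 0.27 and Hic1, a transcriptional repressor, by 1.03. Hic1 had only 6 to 49 counts per library. Its estimate was -1.44 ± 0.40 in GC-named and -0.05 ± 0.60 in other libraries (log2, SE).

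Aldehyde dehydrogenases outside the Aldh1a group gave 6 genes that rose and 2 that fell of 14 tested, against 21.7% and 20.1% of all genes. Their median log2 fold change was 0.24. Mitochondrial Aldh1b1, whose product can also oxidise retinal, rose by 0.30 ± 0.07, Aldh9a1 by 0.34 ± 0.07, Aldh18a1 by 0.44 ± 0.17, Aldh3b1 by 0.40 ± 0.12, Aldh5a1 by 0.24 ± 0.07 and Aldh16a1 by 0.24 ± 0.07 (log2, SE). Aldh3a2, which oxidises fatty aldehydes, fell by 0.28, and Aldh6a1, of valine breakdown, by 0.35. By exon length Aldh1b1 averaged 218 RPKM over the 16 libraries, above Aldh1a1 at 33.0 RPKM.

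Likeness to other genes was measured as the Pearson correlation of log2 CPM over 16 libraries after the means of each diet and name form were removed, and is a description of libraries that share depth and tissue composition. Adh1 was most like Pde7a (r = 0.99) and Sh3bgr (0.98). Aldh1a1 was most like Apol6 (0.92), Fabp2 (0.91) and Sept5 (0.90), and Aldh1a7 most like Tmem176a (0.92), Gstp1 (0.91) and Tmem116 (0.91). Without fish oil/pectin library 7 these 8 values lay between 0.83 and 0.95.

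For Rbp4 the likest genes were Zdhhc2 (0.91), Cavin1 (0.88) and Ppif (0.86), for Dhrs3 Gpatch1 (0.88), Pex6 (0.80) and Zcchc10 (0.79), and for Retsat Glb1 (0.88), Zfp874a (0.87) and Ubox5 (0.87). For Rdh10 they were Chac2 (0.85), Bag2 (0.84) and Wdr62 (0.84), for Stra6 Tmeff1 (0.81), Pcif1 (0.81) and Ankrd42 (0.80), and for Aldh1a3 Cr1l (0.79), Rap1b (0.78) and Med31 (0.78). Between Aldh1a1 and Aldh1a7 the correlation was 0.69, and 0.52 without library 7. Aldh1a1 and Adh1 ran in opposite directions at -0.68, but at -0.37 without that library.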

How the data were processed

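The authors deposited a table of raw counts with gene symbols as its lines, and no column of it was left unused (0 columns). STAR 2.6.0a, HTSeq 0.11.1 and GRCm38 are named in the submitters' processing notes. Symbols were matched to GENCODE M21 (98.7% matched once). Diet effects were fitted in edgeR 4.0.16 (R 4.3.3; robust quasi-likelihood, TMM scaling, filterByExpr, which kept 14321 genes with 99.9% of counts), with the name form as a term and a Benjamini-Hochberg threshold of 0.05. The fit was also run on simulated counts with the same dispersion for every gene and no name form effect. That setting differs from these data, so the run checks the code and not the error rate here. Over 57 same-diet pairs of libraries, chi-square divided by its degrees of freedom was 8.20 to 141, above sampling noise. The 10 genes and all lists were chosen with earlier results of these data known. Named genes were all 10, listed genes past the threshold, a fixed set of receptors and binding proteins, and the 3 likest genes of each member averaging at least 1 CPM, with no predicted genes. Some genes that this rule chose are left out of the text. Counts under the alternatives, which included DESeq2 1.42.0 and limma 3.58.1, are given in the closing section. Promoter sequences are from RefSeq, and coding sequences from GENCODE M21.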

Additional observations from a re-analysis of the deposited data

Results flagged for a closer look

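Aldh1a7 in fish oil/pectin library 7 stood at 40.0 CPM, and the gap to the nearest of the other 6 libraries of that diet, at 30.7 CPM, was 0.629 of the whole range, above the critical value of 0.568. It was the 1 outlier among 22 groups of libraries examined, and chance gives about 1 in 20. The diet effect differed between GC-named and other libraries for 8 listed genes by the test of the difference (edgeR), which called 8.41% of all genes tested. The lists with such genes had 37 pathway genes, 14 retinoic acid targets, 14 other aldehyde dehydrogenases, 6 leukocyte and 10 colonocyte markers tested. The diet effect differed by 0.36 on the log2 scale for Dhrs4 (adjusted p = 0.0351), by -0.59 for Nrip1 (adjusted p = 0.0261) and by 0.69 for Aldh3b1 (adjusted p = 0.0388). Among the cell type markers it differed by -2.07 for Ptprc (adjusted p = 0.00396), by -1.81 for Itgae (adjusted p = 0.0124) and by -0.66 for Lcp1 (adjusted p = 0.0418), all of leukocytes, and by 0.30 for Epcam (adjusted p = 0.0495) and 0.41 for Krt8 (adjusted p = 0.0499) of colonocytes.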

How the results depend on the processing

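Of the 10 genes, 3 were higher with fish oil/pectin under all libraries and 2 to 4 when each library was left out. With a replicate block 1 was higher (Aldh1a7, 0.51, edgeR adjusted p = 0.0341). The number was 0 in the libraries without the GC prefix, in those with name numbers below 800, and with the non-epithelial marker score. Below 800, Aldh1a7 was at 0.44 (edgeR adjusted p = 0.0524), Dhrs3 at 0.31 (adjusted p = 0.102) and Retsat at 0.19 (adjusted p = 0.139). Aldh1a3 was at -0.065 there. The paired replicate numbers did not hold in the data: of 7 same-numbered pairs the correlation of deviations ran from -0.07 to 0.48, so the block is given here alone. Lower genes numbered 0, 1 in GC-named libraries alone (Aldh1a3, -0.79, edgeR adjusted p = 0.0401), and 0 to 1 when each library was left out. In the joint fit Aldh1a3 did not pass within GC-named libraries (-0.77 ± 0.41, SE; edgeR adjusted p = 0.137). Genes higher within GC-named libraries numbered 4 to 5 when each library was left out (the fifth was Adh1, without fish oil/pectin library 7) and 3 with total counts, an alternative chosen after seeing the data. DESeq2 gave 4 higher and 0 lower, limma voom 3 and 0, and sex as a covariate 4 and 0. Of the 9 tested genes 4 changed sign under some setting. For Adh1 they were -0.11 with the block, -0.30 without the GC prefix, -0.035 with total counts, -0.047 with the marker score and -0.055 with the exon length trend removed, and -0.066 to 0.16 when each library was left out. For Rbp4 they were 0.27, 0.093 and 0.026 with the block, without the GC prefix and with the lower name numbers, and -0.13 to 0.11 when each library was left out. Aldh1a1 was at -0.18 without the GC prefix, and Stra6 at 0.0071 with the lower name numbers and 0.081 with the marker score. The cause was not tested. Counts of 8 to 59 per library limit Aldh1a3 and Stra6.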
